A study of Mus musculus with 12 samples.

Results

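The genes described here build, acidify and equip the lysosome of the macrophage. They are 47 of the 18193 genes measured, given by name: 20 genes whose symbol starts with Atp6v, which encode subunits of the vacuolar proton pump (V-ATPase), and 27 named genes for lysosomal enzymes, lipid handling proteins, membrane proteins and regulators. Expression was measured in bone marrow-derived macrophages (BMDMs), which are grown in culture from mouse bone marrow with the growth factor M-CSF. Cells came from Nos2-/- mice (B6.129P2-Nos2tm1Lau/J), which lack the inducible nitric oxide (NO) synthase NOS2 in every cell, or from WT mice (C57BL/6). Stimulation was with LPS at 100 ng/mL together with IFNγ at 50 ng/mL and lasted 8 h. The other cells are called untreated here, since the methods describe a PBS vehicle of equal duration and the labels a state before stimulation. There were 3 arrays, labelled as biological replicates, in each of 4 groups: stimulated Nos2-/-, stimulated WT, untreated Nos2-/- and untreated WT. Each array was an Affymetrix mouse expression array read as log2 RMA signal, and the number of arrays limits the precision. A difference of 1 on this scale is a doubling.

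The lysosome digests material brought in by phagocytosis, endocytosis and autophagy, and its hydrolases work best at acid pH. The V-ATPase acidifies it: the cytosolic V1 sector hydrolyses ATP and the membrane V0 sector carries protons across, and several subunits exist as alternative isoforms encoded by different genes. TFEB, a transcription factor of the MiT/TFE family, raises many of these genes together through an E-box in their promoters called the CLEAR element. In macrophages this system kills and degrades bacteria, prepares antigen and frees cholesterol from ingested lipoproteins.

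The E-box is shown first because it is the sequence feature that many lysosomal promoters share. The letters CACGTG read the same on both strands. They were found in 2349 of 32851 RefSeq promoters (GRCm38.p6, 250 bases before to 50 after each start), or 7.15%, and in 12 of the 42 promoters listed for 37 members. The longer GTCACGTG, searched on both strands and itself containing CACGTG, was found in 738 promoters, or 2.25%, and in 9 of the 42. The windows printed are those of 3 members with an E-box that stand for the pump's V1 sector, its V0 sector and the lysosomal membrane, the calcium channel gene Mcoln1, and Lipa, the member with the largest genotype difference, in whose window these letters do not occur. The capitals mark CACGTG.
Atp6v1a (chr16:44139210-44139509, minus strand): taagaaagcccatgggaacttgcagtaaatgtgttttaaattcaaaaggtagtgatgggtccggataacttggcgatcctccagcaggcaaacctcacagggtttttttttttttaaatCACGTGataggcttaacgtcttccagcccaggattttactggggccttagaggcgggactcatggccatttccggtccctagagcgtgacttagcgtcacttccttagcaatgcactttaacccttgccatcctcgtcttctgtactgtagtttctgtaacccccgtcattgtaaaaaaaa
Atp6v0d1 (chr8:105566015-105566314, minus strand): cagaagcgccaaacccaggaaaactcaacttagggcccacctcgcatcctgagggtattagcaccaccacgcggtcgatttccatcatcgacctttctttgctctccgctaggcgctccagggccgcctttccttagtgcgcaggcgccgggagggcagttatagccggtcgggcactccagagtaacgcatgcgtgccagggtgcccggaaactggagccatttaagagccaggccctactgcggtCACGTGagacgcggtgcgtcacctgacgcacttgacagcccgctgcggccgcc
Lamp1 (chr8:13158911-13159210, plus strand): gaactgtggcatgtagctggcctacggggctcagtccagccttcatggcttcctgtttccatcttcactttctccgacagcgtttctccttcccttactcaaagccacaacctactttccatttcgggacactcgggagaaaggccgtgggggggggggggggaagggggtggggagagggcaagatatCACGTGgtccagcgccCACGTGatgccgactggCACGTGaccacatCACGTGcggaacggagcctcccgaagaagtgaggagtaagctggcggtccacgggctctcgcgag
Mcoln1 (chr8:3500269-3500568, plus strand): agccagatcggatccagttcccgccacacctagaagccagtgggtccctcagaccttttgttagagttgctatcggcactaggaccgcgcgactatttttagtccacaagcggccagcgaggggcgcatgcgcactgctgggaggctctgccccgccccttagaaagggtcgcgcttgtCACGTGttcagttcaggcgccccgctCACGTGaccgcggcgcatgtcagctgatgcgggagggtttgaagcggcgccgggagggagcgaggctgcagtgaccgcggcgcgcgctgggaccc
Lipa (chr19:34527425-34527724, minus strand): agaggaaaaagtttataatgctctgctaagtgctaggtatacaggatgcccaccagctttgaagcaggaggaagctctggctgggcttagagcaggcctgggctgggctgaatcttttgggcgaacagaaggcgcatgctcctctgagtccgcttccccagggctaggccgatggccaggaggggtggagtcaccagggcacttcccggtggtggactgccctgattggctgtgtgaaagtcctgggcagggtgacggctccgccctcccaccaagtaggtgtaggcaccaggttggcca

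In these windows the first base of the E-box lay 131 bases before the start in Atp6v1a and 3 bases before it in Atp6v0d1. Lamp1 held 4 of them, at 61, 45, 28 and 15 bases, and Mcoln1 held 2, at 71 and 45 bases. Ctsb, Ctse, Ctsh, Npc1, Atp6v0a2, Atp6v0d2, Atp6v1b2, Atp6v1c1, Atp6v1g1 and Atp6v1h had no promoter in the table.

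The arrays carried the macrophage markers: all 6 of Csf1r, Adgre1, Cd68, Fcgr1, Mertk and Itgam lay above the median signal of 6.12, and their summed level spanned 15.08 to 15.15 in stimulated Nos2-/-, 15.11 to 15.17 in stimulated WT, 15.25 to 15.31 in untreated Nos2-/- and 15.28 to 15.35 in untreated WT. Markers of B cells, mast cells, fibroblasts and erythroid cells lay below the median signal in every group. Among them, stimulation called Mcpt4 and Pdgfra higher in both genotypes and Kit higher in Nos2-/-. Of the T and NK cell list only Cd3e passed the median signal, and it was called higher in WT. Cd3e averaged 6.24 in stimulated Nos2-/-, 6.33 in stimulated WT, 6.15 in untreated Nos2-/- and 6.10 in untreated WT. In none of the 10 marker lists was a gene called between the stimulated genotypes. Of the 6 macrophage genes, 4 were called lower with stimulation and Fcgr1 higher, in each genotype. Of 8 osteoclast genes, among them the members Ctsk and Atp6v0d2, 4 rose and 2 fell in Nos2-/- and 5 rose and 2 fell in WT. With stimulation, 3 of the 5 measured neutrophil genes were called higher in each genotype and 2 were not called. Their summed level was 12.79 to 12.87 in stimulated Nos2-/-, 12.43 to 12.47 in stimulated WT, 9.83 to 10.45 in untreated Nos2-/- and 9.51 to 10.16 in untreated WT. S100a8, the highest of them, averaged 12.67 in stimulated Nos2-/-, 12.27 in stimulated WT, 9.10 in untreated Nos2-/- and 8.88 in untreated WT. Mpo and Camp were the others called higher, and S100a9 and Elane were not called. Camp averaged 7.15 in stimulated Nos2-/-, 7.09 in stimulated WT, 6.19 in untreated Nos2-/- and 6.27 in untreated WT. Elane averaged 5.22 in stimulated Nos2-/-, 5.32 in stimulated WT, 5.24 in untreated Nos2-/- and 5.32 in untreated WT. In the dendritic list Ccr7 was called higher and Itgax lower in both genotypes, Flt3 was called higher in WT alone, and the sum spanned 9.18 to 9.42 in stimulated Nos2-/-, 8.82 to 9.19 in stimulated WT, 8.71 to 8.92 in untreated Nos2-/- and 8.60 to 8.89 in untreated WT. Of the megakaryocyte list Pf4 was called lower in both genotypes, Itga2b was called higher in WT, and Gp9 was not called. Their part in the responses below was not tested. The probe set for Nos2 read 7.74, 7.45 and 7.88 in stimulated Nos2-/- and 9.73, 9.81 and 9.64 in stimulated WT. The position of this probe set relative to the deletion is not stated, so it does not check the genotypes.

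Stimulation moved most of the 47 genes, and more of them down than up, in both genotypes. In Nos2-/- BMDMs 12 rose, 26 fell and 9 did not pass the test, and in WT BMDMs 14 rose, 26 fell and 7 did not. Over all genes 26.3% were called higher and 28.2% lower in Nos2-/-, and 29.6% higher and 28.4% lower in WT, so falls took a larger share of the members than of the array. The median change of the members was -0.21 in Nos2-/- and -0.20 in WT, beside 0.05 in Nos2-/- and 0.07 in WT for all genes. Calls are those of limma at an adjusted p (Benjamini-Hochberg) under 0.05 without a fold minimum, and less RNA per cell cannot be told apart here from fewer cells of a type. When each array was centred on its own median the members split 15 higher to 18 lower in Nos2-/- and 16 to 19 in WT, and the share of rises among the calls became 45.5% and 45.7%, beside 31.6% and 35.0% as deposited.

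Most members were called in the same direction in both genotypes. Of the 47, 11 rose in both genotypes, 24 fell in both and none was called in opposite directions. Atp6v0a4, Atp6v1c2 and Ctsh were called higher and Ctse and Smpd1 lower in WT alone, Neu1 was called higher and Atp6v1g2 and Atp6v1h lower in Nos2-/- alone, and the difference between the genotypes' responses was called for none of these 8. Atp6v0d1, Atp6v0e, Atp6v0e2 and Atp6v1g1 were called in neither. These calls are those of the probe set used. Another was called lower for Smpd1 in Nos2-/- (-0.49), and 1 of 3 was called higher in WT for Neu1 and for Atp6v1g1. With the cut-offs the methods name (at least 1.5-fold, false discovery rate below 0.5), 6 members were higher and 14 lower in each genotype, beside 26.6% of all genes called in either direction in Nos2-/- and 25.9% in WT.

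**Figure D1:**
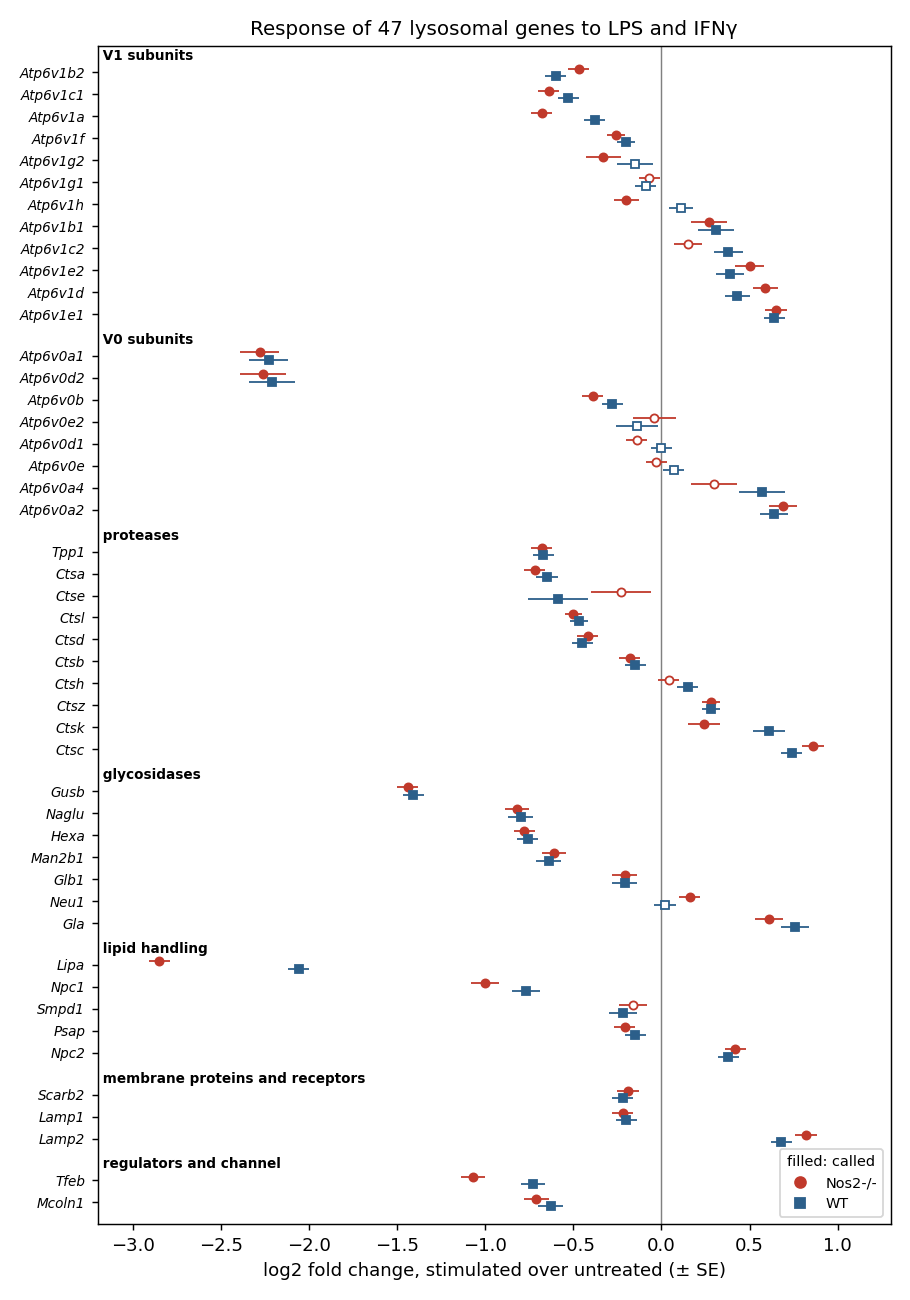
Response of the 47 genes to LPS and IFNγ, as log2 fold change of stimulated over untreated with its standard error, in Nos2-/- (red circles) and WT (blue squares), ordered within each role by the WT value. Filled symbols are called genes, and Lipa, Atp6v0a1 and Atp6v0d2 lie farthest to the left, below -2 in both genotypes.

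The V1 sector, which binds and hydrolyses ATP, was split. Of its 12 members 4 rose and 6 fell in Nos2-/-, beside 26.3% and 28.2% of all genes, and 5 rose and 4 fell in WT, beside 29.6% and 28.4%. Above the median signal only Atp6v1e1 and Atp6v1d rose. The other rises, of Atp6v1b1 and Atp6v1e2 in both genotypes and Atp6v1c2 in WT, were of genes below it. So was the fall of Atp6v1g2 in Nos2-/-. Atp6v1e1, part of the peripheral stalk, had the largest rise in WT, with 12.24, 12.13 and 12.24 in stimulated Nos2-/- against 11.62, 11.50 and 11.57 in untreated Nos2-/-, and 12.17, 12.16 and 12.16 in stimulated WT against 11.52, 11.53 and 11.53 in untreated WT. The stimulated arrays were all higher, with rises of 0.65 (SE 0.06) in Nos2-/- and 0.64 (SE 0.06) in WT. Atp6v1d, a subunit of the central rotor, rose by 0.59 in Nos2-/- and 0.43 in WT.

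The subunits of the catalytic head went the other way. Atp6v1b2, the B subunit used by macrophages and most other cells, had the largest V1 fall in WT, with 11.40, 11.28 and 11.31 in stimulated WT against 11.92, 11.93 and 11.94 in untreated WT. In Nos2-/- it read 11.46, 11.35 and 11.49 when stimulated and 11.87, 11.91 and 11.93 when untreated. Stimulated and untreated arrays did not overlap in either genotype, with changes of -0.47 in Nos2-/- and -0.60 in WT. Atp6v1b2 was the only member with probe sets called in both directions in Nos2-/-, since 1 of its 4, below the median signal, rose by 0.45 there (adjusted p = 0.0034) and gave 0.22, not called, in WT. Atp6v1a, the A subunit that carries the catalytic site, and Atp6v1c1, which joins the V1 and V0 sectors, fell as well, Atp6v1c1 by 0.64 in Nos2-/- and by 0.53 in WT. The alternative isoform genes Atp6v1b1, Atp6v1c2, Atp6v1e2 and Atp6v1g2, were below the median signal, where changes of this size rest on faint signals.

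In the V0 sector the large changes fell on isoform genes. The a subunit anchors the pump and directs it to a compartment, and Atp6v0a1 read 6.43, 6.73 and 6.32 in stimulated Nos2-/- against 8.64, 8.82 and 8.85 in untreated Nos2-/-, and 6.46, 6.54 and 6.69 in stimulated WT against 8.77, 8.68 and 8.91 in untreated WT. It fell by 2.28 (SE 0.11, 4.85-fold) in Nos2-/- and fell by 2.23 (SE 0.11, 4.68-fold) in WT, and the arrays of the 2 states lay about 2 log2 units apart. Atp6v0a2, another a isoform, rose, with 8.43, 8.40 and 8.29 in stimulated Nos2-/- against 7.72, 7.61 and 7.71 in untreated Nos2-/-, and 8.28, 8.32 and 8.53 in stimulated WT against 7.67, 7.75 and 7.80 in untreated WT. Its rises of 0.69 in Nos2-/- and 0.64 in WT came from a probe set whose name ends in _a_at. With probe sets ending in _s_at, _x_at or _a_at left out, the one then used gave -0.06 in Nos2-/- and -0.03 in WT, neither called. The third Atp6v0a2 probe set, with none of these endings, was called higher in both genotypes. It rose by 0.27 in Nos2-/- (limma, adjusted p = 0.0412) and by 0.30 in WT (adjusted p = 0.0243). Tcirg1, which encodes the a3 isoform of lysosomes and osteoclasts and is not among the 47, rose by 0.65 in Nos2-/- and 0.75 in WT.

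The d subunit couples rotation to proton transport and has a widely expressed isoform, Atp6v0d1, and a restricted one, Atp6v0d2, known from osteoclasts and macrophages. Atp6v0d2 read 6.64, 6.56 and 6.96 in stimulated Nos2-/- against 9.14, 8.74 and 9.04 in untreated Nos2-/-, and 6.36, 6.64 and 6.80 in stimulated WT against 8.94, 8.76 and 8.72 in untreated WT. It fell by 2.26 (SE 0.13, 4.78-fold) in Nos2-/- and fell by 2.21 (SE 0.13, 4.62-fold) in WT, with no overlap. Atp6v0d1 read 11.29, 11.30 and 11.17 in stimulated Nos2-/- against 11.38, 11.37 and 11.43 in untreated Nos2-/-, and 11.40, 11.33 and 11.46 in stimulated WT against 11.40, 11.38 and 11.40 in untreated WT. Its change was -0.14 in Nos2-/- (95% confidence interval -0.27 to 0.00) and 0.00 in WT (-0.13 to 0.13), neither called.

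**Figure D2:**
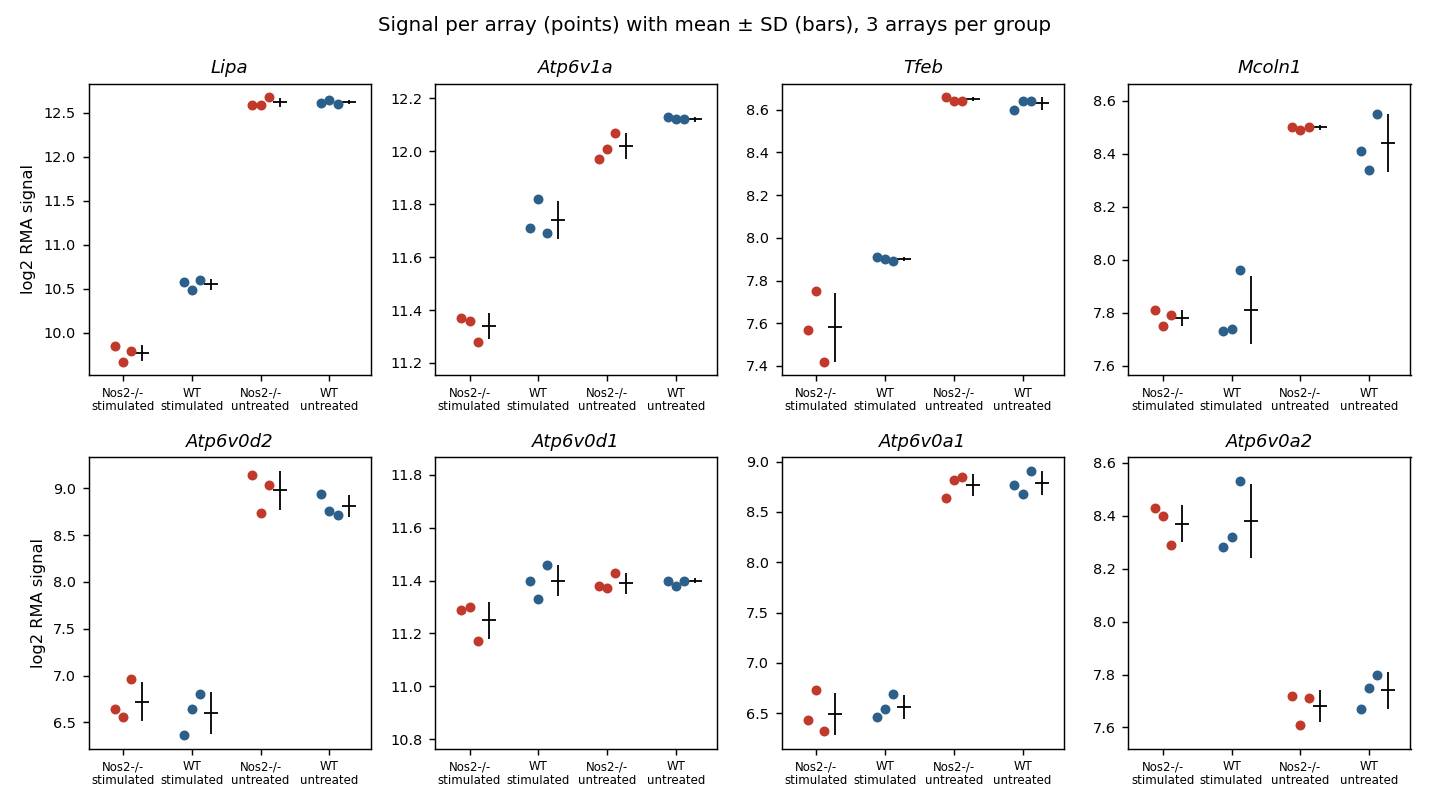
Log2 RMA signal on each array (points) with the group mean and SD (bars) for 8 genes in stimulated Nos2-/-, stimulated WT, untreated Nos2-/- and untreated WT, 3 arrays each and each panel on its own axis. The stimulated Nos2-/- points of Lipa, Atp6v1a and Tfeb all lie below those of stimulated WT, whereas those of Atp6v0d2 and Atp6v0a1 overlap.

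Among the 10 proteases, 3 rose and 5 fell in Nos2-/- and 4 rose and 6 fell in WT. The rises were near the all-gene shares of 26.3% in Nos2-/- and 29.6% in WT. The falls stood beside 28.2% of all genes called lower in Nos2-/- and 28.4% in WT. Ctsc encodes cathepsin C, which activates granule serine proteases in immune cells, and had the largest rise. It read 14.11, 14.10 and 14.05 in stimulated Nos2-/- against 13.22, 13.25 and 13.21 in untreated Nos2-/-, and 14.06, 14.04 and 14.07 in stimulated WT against 13.28, 13.29 and 13.38 in untreated WT, with rises of 0.86 in Nos2-/- and 0.74 in WT. Its other probe sets rose more, by 1.80 and by 1.67 in Nos2-/- and by 1.26 and by 1.20 in WT. Tpp1, a tripeptidyl peptidase, had the largest fall in WT, with 10.98, 11.05 and 11.01 in stimulated Nos2-/- against 11.69, 11.70 and 11.70 in untreated Nos2-/-, and 11.02, 11.15 and 11.09 in stimulated WT against 11.72, 11.76 and 11.78 in untreated WT. Its groups did not overlap and its falls were 0.68 and 0.67. Ctsa, the protective protein of a lysosomal enzyme complex, fell by 0.72 in Nos2-/- and by 0.65 in WT, and Ctsd, the aspartic protease cathepsin D, by 0.42 and by 0.45. Ctsz, a carboxypeptidase, rose by 0.28 in each genotype.

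The 7 glycosidases, which take sugars off glycoproteins, glycolipids and glycosaminoglycans, mostly fell. In each genotype 5 of them fell, beside 28.2% of all genes called lower in Nos2-/- and 28.4% in WT. The median change was -0.61 in Nos2-/- and -0.64 in WT, beside 0.05 and 0.07 for all genes. Gusb, β-glucuronidase, read 10.80, 10.86 and 10.73 in stimulated Nos2-/- against 12.23, 12.24 and 12.24 in untreated Nos2-/-, and 10.85 on all 3 stimulated WT arrays against 12.26, 12.28 and 12.26 in untreated WT. The falls of 1.44 (SE 0.06, 2.71-fold) in Nos2-/- and 1.41 (SE 0.06, 2.67-fold) in WT were the largest of the group. Naglu, Hexa and Man2b1, which degrade heparan sulphate, GM2 ganglioside and mannose-rich glycans, fell by 0.82, 0.78 and 0.61 in Nos2-/-. Gla, α-galactosidase A, rose, with 10.72, 10.57 and 10.85 in stimulated Nos2-/- against 10.10, 10.04 and 10.18 in untreated Nos2-/-, and 10.90, 10.88 and 10.97 in stimulated WT against 10.18, 10.08 and 10.22 in untreated WT. Its rises were 0.61 in Nos2-/- and 0.76 in WT, and the states did not overlap.

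Of the 5 genes of lipid handling, Lipa, Npc1 and Psap fell and Npc2 rose in both genotypes, and Smpd1 was called lower in WT alone. Over all genes 28.2% were called lower and 26.3% higher in Nos2-/-, and 28.4% lower and 29.6% higher in WT. Lipa encodes lysosomal acid lipase, which frees cholesterol and fatty acids from cholesteryl esters and triglycerides, and NPC1 and NPC2 together move the freed cholesterol out of the lysosome. Lipa read 9.85, 9.67 and 9.79 in stimulated Nos2-/- against 12.59, 12.59 and 12.68 in untreated Nos2-/-, and 10.58, 10.48 and 10.60 in stimulated WT against 12.61, 12.64 and 12.60 in untreated WT. It fell by 2.85 (SE 0.06, 7.21-fold) in Nos2-/- and fell by 2.06 (SE 0.06, 4.18-fold) in WT. Npc1 fell by 1.00 in Nos2-/- and by 0.77 in WT. Psap, the precursor of the saposins that help sphingolipid hydrolases, changed by -0.21 in Nos2-/- and -0.15 in WT. Smpd1, acid sphingomyelinase, changed by -0.16 in Nos2-/-, not called, and -0.22 in WT. The other Smpd1 probe set was called lower in both genotypes, at -0.49 in Nos2-/- and -0.55 in WT. Npc2 read 13.72, 13.64 and 13.72 in stimulated Nos2-/- against 13.28, 13.24 and 13.31 in untreated Nos2-/-, and 13.64, 13.69 and 13.67 in stimulated WT against 13.29, 13.29 and 13.28 in untreated WT, which gave rises of 0.42 and 0.38 with no overlap.

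Lamp2, whose product is an abundant lysosomal membrane protein, rose, with 13.18, 13.16 and 13.18 in stimulated Nos2-/- against 12.35, 12.38 and 12.33 in untreated Nos2-/-, and 13.09, 13.21 and 13.14 in stimulated WT against 12.49, 12.48 and 12.42 in untreated WT. The rises were 0.82 in Nos2-/- and 0.68 in WT. Lamp1, the related membrane protein, fell by 0.22 in Nos2-/- and by 0.20 in WT. Scarb2, which carries β-glucocerebrosidase to the lysosome, read 10.35, 10.27 and 10.43 in stimulated Nos2-/- against 10.55, 10.50 and 10.57 in untreated Nos2-/-, and 10.29, 10.39 and 10.42 in stimulated WT against 10.57, 10.55 and 10.63 in untreated WT. It changed by -0.19 in Nos2-/- and -0.22 in WT, and by -0.97 and -0.96 on its other probe set.

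Tfeb, the regulator, and Mcoln1, the channel, fell in both genotypes. Tfeb read 7.57, 7.75 and 7.42 in stimulated Nos2-/- against 8.66, 8.64 and 8.64 in untreated Nos2-/-, and 7.91, 7.90 and 7.89 in stimulated WT against 8.60, 8.64 and 8.64 in untreated WT. It fell by 1.07 (SE 0.07, 2.10-fold) in Nos2-/- and by 0.73 (SE 0.07, 1.66-fold) in WT. Mcoln1 encodes TRPML1, through which calcium leaves the lysosome. It read 7.81, 7.75 and 7.79 in stimulated Nos2-/- against 8.50, 8.49 and 8.50 in untreated Nos2-/-, and 7.73, 7.74 and 7.96 in stimulated WT against 8.41, 8.34 and 8.55 in untreated WT, and fell by 0.71 and by 0.63. The arrays of the 2 states did not overlap for either gene.

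The rest of the MiT/TFE family moved in both directions, and it is named here after its values were seen. Tfec, the family member most restricted to macrophages, read 10.01, 9.75 and 10.10 in stimulated Nos2-/- against 7.83, 7.73 and 7.80 in untreated Nos2-/-, and 9.88, 9.86 and 9.87 in stimulated WT against 7.86, 7.73 and 7.66 in untreated WT, and rose by 2.16 and by 2.12. Tfe3 rose by 0.33 in Nos2-/- and 0.41 in WT. Mitf fell by 0.41 in Nos2-/- and changed by -0.14 in WT, where it was not called (adjusted p = 0.0738).

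The 12 members with an E-box in the window ran from -0.82 to 0.61 in Nos2-/- and from -0.80 to 0.76 in WT, with 9 called lower and 1 higher in each genotype and medians of -0.40 in Nos2-/- and -0.33 in WT. The 25 members with a window and no E-box ran from -2.85 to 0.86 in Nos2-/-, 11 lower and 10 higher, with a median of -0.04. In WT they ran from -2.23 to 0.74, 11 lower and 11 higher, with a median of -0.14. These 25 include all 6 members below the median signal, whose changes rest on faint signals. Of those 6, 2 were called higher and 1 lower in Nos2-/-, with a median of 0.21. In WT 4 of them were called higher and 0 lower, with a median of 0.34. Over all genes 28.2% were called lower and 26.3% higher in Nos2-/-, and 28.4% lower and 29.6% higher in WT. Among members with a window, Lipa, Atp6v0a1 and Gusb, which fell most, had no E-box in it. These are counts of letters in a short window and were not tested.

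Without stimulation none of the 47 was called between Nos2-/- and WT, beside 0.0055% of all genes called higher and 0.0055% lower. At an unadjusted p under 0.05 there was 1 member, Ctsk, the collagen-degrading cathepsin K, at 0.23 (95% confidence interval 0.03 to 0.43), and 728 of 18193 genes. The members' differences ran from -0.27 to 0.23. Lipa differed by 0.00 (-0.14 to 0.14), Atp6v1a by -0.10 (-0.24 to 0.03) and Tfeb by 0.02 (-0.14 to 0.18).

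After stimulation 3 of the 47 genes were lower in Nos2-/- than in WT BMDMs and none was higher, beside 1.91% of all genes called lower and 1.03% higher. The 3 were Lipa, Atp6v1a and Tfeb, the acid lipase, the catalytic subunit of the pump and the transcription factor. The members' median was -0.05, beside -0.01 for all genes, 34 of the 47 lay below 0 and 41 lay within 0.25 of 0. The same 6 stimulated arrays enter this comparison and the difference between the responses, and the untreated arrays enter each response.

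Lipa differed by -0.78 (SE 0.06, 95% confidence interval -0.92 to -0.65, adjusted p = 1.3e-05), a 1.72-fold lower signal in stimulated Nos2-/-. The stimulated arrays given above did not overlap, with the highest Nos2-/- array at 9.85 and the lowest WT array at 10.48. The response itself differed by -0.79 (SE 0.09, -0.99 to -0.59, adjusted p = 5.6e-04), and Lipa was the only one of the 47 called in that comparison, in which 0.676% of all genes were called lower and 0.302% higher. On the other probe sets Lipa read 9.19, 9.09 and 8.78 and 8.52, 8.46 and 8.42 in stimulated Nos2-/-, against 9.98, 10.10 and 10.12 and 9.47, 9.23 and 9.50 in stimulated WT, again without overlap. All 3 Lipa probe sets were called lower between the stimulated genotypes, at -0.93, -1.05 and -0.78, and in the difference, at -0.96, -0.95 and -0.79. Across 20 alternative settings that allow this test, adjusted p for the difference ran from 2.6e-06 to 0.0047.

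Atp6v1a read 11.37, 11.36 and 11.28 in stimulated Nos2-/- and 11.71, 11.82 and 11.69 in stimulated WT, a difference of -0.40 (SE 0.06, 95% confidence interval -0.54 to -0.27, adjusted p = 0.0019), or 1.32-fold. The untreated arrays stood at 11.97, 12.01 and 12.07 in Nos2-/- and 12.13, 12.12 and 12.12 in WT, so the gene fell by 0.68 in Nos2-/- and by 0.38 in WT. The stimulated genotypes did not overlap, its second probe set gave -0.45, and adjusted p ran from 1.4e-05 to 0.0417 over 21 alternative settings. The difference between the responses, -0.30 (-0.49 to -0.11), did not pass the test (adjusted p = 0.1645).

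Tfeb differed by -0.32 (SE 0.07, 95% confidence interval -0.48 to -0.16, adjusted p = 0.0335), with stimulated Nos2-/- at 7.42 to 7.75 and stimulated WT at 7.89 to 7.91. This call was the weakest of the 3. With any 1 of the arrays left out it kept its direction, but adjusted p ran from 0.0047 to 0.1080, and it passed only without untreated Nos2-/- replicate 3 or without stimulated Nos2-/- replicate 2. The difference between the responses was -0.34 (-0.57 to -0.11, adjusted p = 0.2079).

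Npc1 (-0.30, 95% confidence interval -0.46 to -0.14, adjusted p = 0.0540) and Atp6v1h (-0.25, -0.40 to -0.10, adjusted p = 0.0741), a regulatory V1 subunit, came next and did not pass. At an unadjusted p under 0.05 there were 10 of 47 members (21.3%) between the stimulated genotypes, beside 15.1% of all genes, and 5 (10.6%) in the difference between the responses, beside 10.0% of all genes, where Ctsk, Atp6v1h, Tfeb and Atp6v1a joined Lipa at -0.38, -0.31, -0.34 and -0.30. Atp6v0d2, Atp6v0a1 and Gusb, the other members with the largest falls, differed between the stimulated genotypes by 0.12 (-0.17 to 0.41), -0.07 (-0.30 to 0.16) and -0.05 (-0.18 to 0.07). Of the 24 members that fell in both genotypes, 20 (83.3%) had the larger fall in Nos2-/-, beside 2674 of the 4713 genes (56.7%) of the whole array that fell in both, and among the members the difference itself was called for Lipa alone.

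**Figure D3:**
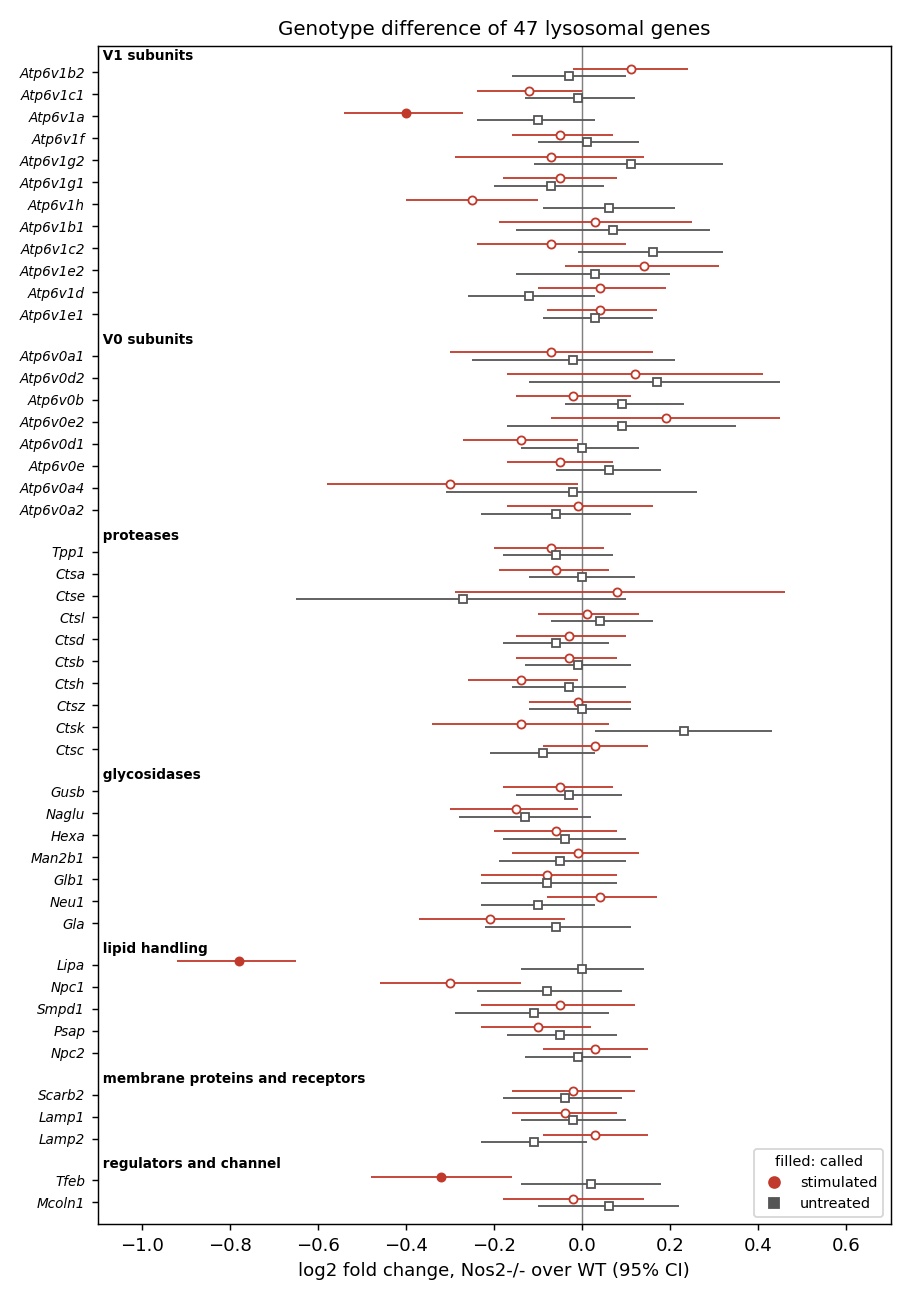
Difference of Nos2-/- over WT for the 47 genes as log2 fold change with its 95% confidence interval, in stimulated (red circles) and untreated (grey squares) BMDMs. Filled symbols are called genes, which are Lipa at -0.78, Atp6v1a at -0.40 and Tfeb at -0.32, all in stimulated cells.

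Counts for 6 other lists of lysosomal genes are read against the all-gene shares, 26.3% higher and 28.2% lower in Nos2-/- and 29.6% higher and 28.4% lower in WT. Of 25 other lysosomal hydrolases, 4 rose and 16 fell in Nos2-/- and 4 rose and 17 fell in WT, with medians of -0.72 and -0.74. Of 12 other pump genes, 3 rose and 8 fell in Nos2-/- and 3 rose and 9 fell in WT. They are accessory and assembly factors together with Tcirg1, the a3 isoform given above, which is one of the rises. Atp6ap1, an accessory subunit, fell by 0.73 in Nos2-/- and by 0.70 in WT. Of 21 other lysosomal membrane proteins 4 rose and 13 fell in Nos2-/- and 5 rose and 12 fell in WT. Of 9 other proteases and inhibitors 1 rose and 2 fell in Nos2-/- and 1 rose and 3 fell in WT, of 19 regulators 4 rose and 10 fell in Nos2-/- and 3 rose and 8 fell in WT, and of 8 genes of mannose 6-phosphate sorting 3 rose and 4 fell in each genotype.

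Between the stimulated genotypes 1 gene was called in each of 3 of these lists, all lower in Nos2-/-, which is 3 of 94 genes (3.19%), beside 1.91% of all genes called lower. Sort1, a sorting receptor for lysosomal enzymes, read 7.31, 7.14 and 7.09 in stimulated Nos2-/- and 7.57, 7.62 and 7.67 in stimulated WT (-0.44, adjusted p = 0.0075). Mitf read 10.53, 10.47 and 10.49 in stimulated Nos2-/- and 10.80, 10.80 and 10.77 in stimulated WT (-0.30, adjusted p = 0.0168). Slc11a1, the phagosomal metal transporter Nramp1, averaged 11.80 ± 0.07 in stimulated Nos2-/- and 12.05 ± 0.05 in stimulated WT (SD, n = 3 each), a difference of -0.25 (adjusted p = 0.0443 in limma), and no array overlapped for any of the 3. No gene of these lists was called between the untreated genotypes or in the difference between the responses.

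Of the 47 genes 30 had more than 1 probe set, 102 in all with the 17 that had 1, and the choice of probe set mattered for the size of a change. For Ctsl, a cathepsin of broad use, the probe set used gave -0.50 in Nos2-/- and -0.47 in WT, and the other -1.78 and -1.53. Scarb2 showed the same kind of gap between its probe sets. For Ctsb, cathepsin B, the 5 probe sets ran from -0.82 to -0.13 in Nos2-/- and from -0.79 to -0.15 in WT. In these 3 genes the probe set used gave a change at or near the smallest, and its values reach 14.09 to 14.12 on an array whose highest value is 14.73 for Ctsb and Ctsl. Npc2 behaved likewise, with rises of 0.42 to 1.66 in Nos2-/- and 0.38 to 1.27 in WT. So did Ctsc, whose probe set used gave the smallest of its 3 rises in each genotype and reached 14.11 in stimulated Nos2-/-.

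For Ctsc and Atp6v1b2 a second probe set changed a call between the genotypes or in the difference between their responses. The _s_at probe set of Ctsc read 10.95, 10.86 and 10.90 in stimulated Nos2-/-, 10.70, 10.69 and 10.80 in stimulated WT, 9.13, 9.13 and 9.05 in untreated Nos2-/- and 9.50, 9.51 and 9.38 in untreated WT. It rose by 1.80 in Nos2-/- and by 1.26 in WT, a difference of 0.54 (SE 0.09, 95% confidence interval 0.34 to 0.74, adjusted p = 0.0128 over all 34945 probe sets), while the Ctsc probe set used gave 0.12 and the third gave 0.47 (0.16 to 0.78, adjusted p = 0.2244), neither called. The _s_at probe set of Atp6v1b2 was called higher in stimulated Nos2-/- (10.20, 10.21 and 10.23) than in stimulated WT (9.93, 9.95 and 9.97), by 0.27, and the Atp6v1b2 probe set used gave 0.11, not called. Over the 102 member probe sets 1 was called higher and 6 lower between the stimulated genotypes. The 6 were the 3 of Lipa, the 2 of Atp6v1a and that of Tfeb, so they add no gene to the 3 called lower above.

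**Figure D4:**
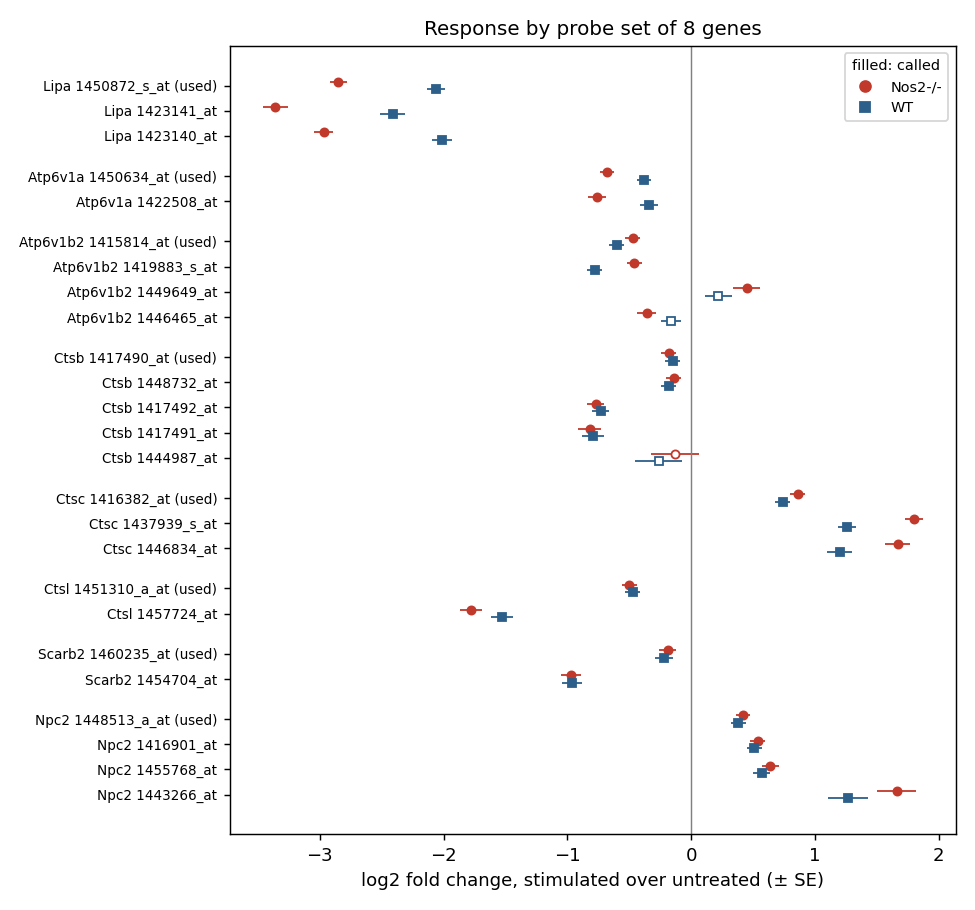
Response to LPS and IFNγ by probe set for 8 of the 47 genes, as log2 fold change of stimulated over untreated with its standard error, in Nos2-/- (red circles) and WT (blue squares), with the probe set used marked. The 3 Lipa probe sets all fall further in Nos2-/-, and Ctsl and Scarb2 differ between probe sets by more than between genotypes.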

How the data were processed

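Total RNA of 12 BMDM cultures was hybridized to Affymetrix mouse arrays. The authors used Partek (version not given in the sources used here) for RMA and deposited log2 values, with array medians of 5.14 to 5.21. Of 45101 probe sets, 64 controls were left out, 34945 name 1 gene and were used, 932 name several and 9160 none. Where a gene had several, the probe set brightest on average across the 12 arrays stood for it, which gave 18193 genes. Atp6v0c and Atp6v1g3, with no probe set of their own, are not analysed here.

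Tests were two-sided moderated contrasts from limma 3.58.1 (R 4.3.3), fitted as 4 group means over the 12 arrays, and p-values were adjusted over all genes by Benjamini-Hochberg. The study used an analysis of variance and kept genes past 1.5-fold at a false discovery rate of 0.5, cut-offs that were applied to the limma fit as an alternative. The scripts were tested on simulated data. Figures were drawn with matplotlib 3.10.9 under Python 3.11.15. Members and lists were chosen with earlier results of these data known. Genes named with values per array are those called between genotypes or in the response difference, and the largest called rise and fall of each role in WT, with Tfeb, Mcoln1, Atp6v0d1 and Atp6v0d2. Others are named by a result that turns on them.

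Alternatives were only the arrays compared, no moderation, an intensity trend, centring on array medians, quantile normalization, no genes below the median signal, the mean of all probe sets, no probe sets ending in _s_at, _x_at or _a_at, the methods' thresholds, leaving out each array and a block for the replicate number.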

Additional observations from a re-analysis of the deposited data

Results flagged for a closer look

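The response of Lipa differed between the genotypes in a test of the difference itself, by -0.79 on the log2 scale (limma, adjusted p = 5.6e-04 over all genes). Its other probe sets differed in the same way, at -0.95 (adjusted p = 0.0054) and -0.96 (adjusted p = 8.2e-04), adjusted over all probe sets. At its _s_at probe set the response of Ctsc differed by 0.54, in the other direction (adjusted p = 0.0128), at the Ctsc probe set used by 0.12, and at the third by 0.47 (adjusted p = 0.2244), the last 2 not called.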

How the results depend on the processing

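Calls were kept in most alternatives: of 5048 values for the 47 genes, 4871 kept the reported call. Another 146 fell short of the threshold, 28 newly passed it and 3 reversed. Direction was compared only where the reported result was called, so changes of sign among results not called are not counted. Without probe sets ending in _s_at, _x_at or _a_at, Atp6v0a2 changed by -0.06 in Nos2-/- and -0.03 in WT, and Ctse by 0.01 in WT, all from another probe set of the gene. At 1.5-fold and a false discovery rate under 0.5 the members called were 6 higher and 14 lower in each genotype's response, and 1 was lower in stimulated Nos2-/-. Lower members between the stimulated genotypes numbered 5 with the intensity trend and 5 without genes below the median signal, which added Npc1 and Atp6v1h. In the difference between the responses 1 member, Ctsc, was higher with the mean of all probe sets (0.38, adjusted p = 0.0396), and 2 were lower with the intensity trend, Lipa and Atp6v1a. Leaving out each array in turn gave 2 to 4 lower between the stimulated genotypes, 10 to 13 higher and 22 to 26 lower in the Nos2-/- response, 12 to 14 higher and 22 to 26 lower in the WT response, and 1 to 2 lower in the difference. No member was called higher between the stimulated genotypes, or either way between the untreated genotypes, in any of these alternatives. Tfeb between the stimulated genotypes was also lost with only the arrays compared (adjusted p = 0.2056) and without moderation (adjusted p = 0.0555). The response of Psap in WT was lost in 14 of 21 alternatives, Ctsh in WT and Ctsk in Nos2-/- each in 12 of 22. Centring on array medians moved the median of all genes to 0.171 in Nos2-/- and 0.177 in WT.

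Whether the replicate numbers pair the arrays is not stated. Same-numbered arrays of different groups correlated at -0.26 to 0.211 in their deviations from the group means, and 2 of 18 pairs were over 0.1. Arrays of other numbers correlated at -0.166 to 0.274, and 2 of 36 pairs were over 0.1. With 3 arrays in a group these values cannot decide whether the numbers pair. With the replicate block 10 members rose and 26 fell in Nos2-/-, 13 rose and 25 fell in WT, and 3 were lower between the stimulated genotypes. The model of only the arrays compared has no value for the difference between the responses. Depth is not given by arrays, and 6 members lay below the median signal.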
